A study of Homo sapiens with 8 samples.

Results

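NRF2, its inhibitor KEAP1 and 8 antioxidant genes that NRF2 is known to induce were followed through 8 transfections of human cancer cell lines. The 10 genes (NFE2L2, KEAP1, NQO1, HMOX1, GCLM, GCLC, TXNRD1, SRXN1, SLC7A11 and AKR1C1) were taken by gene symbol from the 43317 gene names of a 2-colour Agilent 60K microarray, and 12 array probes carried these symbols. PC3 (prostate cancer) received si-PIR-2 or si-PIR-3, siRNAs against PIR, and SK-MES-1 (lung squamous cell carcinoma) received miR-144-5p or miR-144-3p. SW1990 (pancreatic cancer) and MDA-MB-231 (breast cancer) each received miR-204-5p, and PANC1 (pancreatic cancer) received miR-130-5p or miR-130-3p. RNA of untransfected cells of the same line, called mock, was labelled with Cy3 and RNA of the transfected cells with Cy5 on the same array. Each transfection had 1 array, no control RNA was transfected and no dyes were swapped, so the effects of the transfected RNA, of the transfection itself and of the dye cannot be told apart on a single array. Each line is 1 established culture, and nothing in the labels says how many dishes of cells stand behind an array.

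NFE2L2 encodes NRF2, a transcription factor that KEAP1 normally delivers to a CUL3 ubiquitin ligase for degradation. Oxidants and electrophiles modify cysteines of KEAP1, and NRF2 then accumulates, pairs with small MAF proteins and binds antioxidant response elements in the promoters of genes for glutathione synthesis, thioredoxin recycling and the detoxification of quinones and aldehydes. BACH1 competes for the same elements and holds down HMOX1 in particular. In many lung squamous and other carcinomas the pathway is constitutively active. Pirin, the product of PIR, is an iron-binding nuclear protein whose gene is itself known as an NRF2 target. NFE2L2 has been reported as a target of miR-144-3p.

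The mature miRNAs whose names settle their sequence are shown because seeds differ between the transfections. They are the RefSeq entries (GRCh38.p14), with the seed, bases 2 to 8, in capitals.
miR-144-3p: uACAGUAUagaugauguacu
miR-144-5p: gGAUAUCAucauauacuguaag
miR-204-5p: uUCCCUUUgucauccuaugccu
Both miR-144 strands come from chr17 (chr17:28861548-28861567 and chr17:28861583-28861604, minus strand), and miR-204-5p comes from chr9:70810031-70810052, minus strand. No 2 of the 3 seeds were the same. The labels do not say which miR-130 paralog was used, and no sequence is given for it.

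Across the 8 arrays, the mock signal was well above background for 41.4% to 46.4% of the 58201 probes and the transfected signal for 49.8% to 54.6%. No probe was saturated. Values are the log2 ratio of transfected over mock that the scanner software gave after its own background and dye correction, and its error for 1 ratio is printed with ± where a single array is described. The epithelial genes KRT8, KRT18, EPCAM and KRT19 were above background in the mock cells of all 5 lines. CDH1 was not above background in SK-MES-1 and PANC1, KRT5 was not in SK-MES-1, and the prostate gene KLK3 was in none of the lines, PC3 included. PIR, the siRNA target, had ratios of -5.46 with si-PIR-2 and -4.27 with si-PIR-3.

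NRF2 mRNA was not measured by these arrays. NFE2L2 had a single probe (A_33_P3225600, NM_006164), placed by the array annotation at chr2:178095693-178095752 of hg19 on the minus strand, and it was not well above background in either channel on any of the 8 arrays. Its mean mock intensity lay between 19 and 20.5 and its transfected intensity between 15.8 and 18.0, in all 5 lines alike. The scanner file listed its ratio as 0 on every array, with an error of 2.10 to 2.22. The probe sequence is shown because its composition stands out.
NFE2L2 probe: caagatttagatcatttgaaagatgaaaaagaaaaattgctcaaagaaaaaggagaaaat
It has 25% G and C, against a median of 43.3% over all probes. Of the 157 probes with that same share of G and C, 54.1% were well above background in some channel on some array, against 66.2% of all probes. The question whether miR-144-3p lowered NFE2L2 in SK-MES-1 therefore has no answer in these values. The other 9 genes were measured, 8 of them on all 8 arrays and AKR1C1 on 6.

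In untransfected cells, the antioxidant genes differed widely between the 5 lines, and SK-MES-1 had the highest mock level for 6 of the 9 genes. Mock levels are log2 Cy3 intensities set to a common distribution over the arrays, with an offset of 50 that compresses low levels, and arrays of a line were averaged. Over the 5 lines, 7 of the 9 genes spanned 1 or more on the log2 scale, against 31.6% of the 24856 genes with a mock signal. The median span was 2.76 for the 9 genes and 0.62 for all genes. KEAP1 and GCLM stayed under 1. As each line is 1 culture, these are descriptions of the cultures and were not tested.

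**Figure D1:**
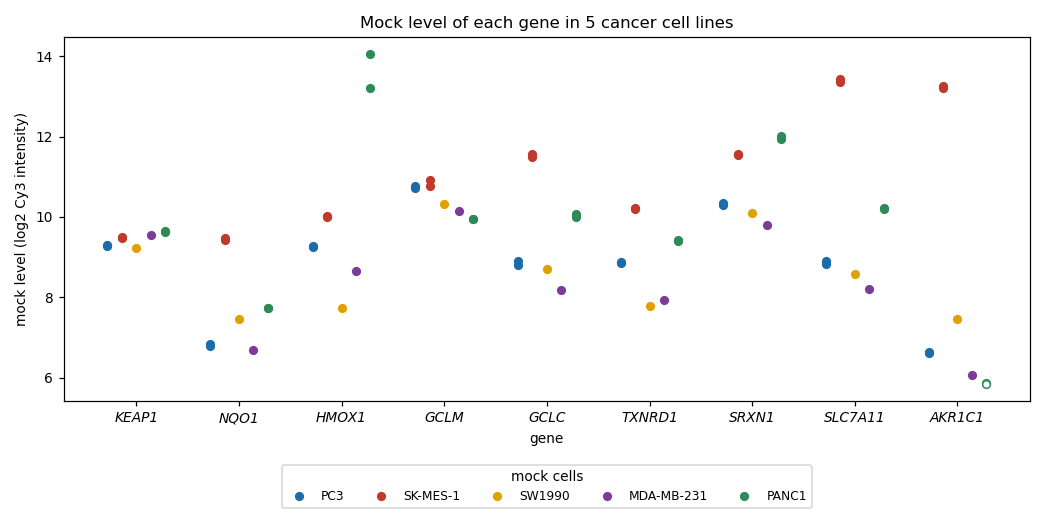
Mock level of each gene (log2 Cy3 intensity, one point per array) in the 5 lines, with open points where the signal was not well above background. SK-MES-1 stood highest for NQO1, GCLM, GCLC, TXNRD1, SLC7A11 and AKR1C1, and the 2 PANC1 points of HMOX1 lie apart at 13.20 and 14.06.

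The widest span belonged to AKR1C1, an aldo-keto reductase that reduces steroids and lipid aldehydes. Its brightest probe lies at chr10:5019910-5019969 of hg19, plus strand, the build of all probe positions given here, for which exons and untranslated regions were not assigned. Its mock level was 13.23 in SK-MES-1, 7.46 in SW1990, 6.62 in PC3 and 6.07 in MDA-MB-231, and it was not well above background in PANC1 at 5.85. Relative to PANC1, SK-MES-1 was at least 165-fold higher by this probe, counting the lowest signal well above background as the PANC1 level. No 2 neighbouring lines in that order were closer than 0.0417, although PANC1 had no measured level. The 0.0417 was the largest difference between mock channels of the same line for this probe. By the second AKR1C1 probe, the mock levels were 12.33 and 12.30 on the SK-MES-1 arrays and 5.88 and 5.86 on the PANC1 arrays. By the third they were 7.75 and 7.81 against 5.81 and 5.77. Neither probe was well above background in PANC1. The AKR1C1 signal may include AKR1C2, as set out below.

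SLC7A11, the cystine importer that feeds glutathione synthesis (chr4:139085433-139085492, minus strand), had a span of 5.20, after HMOX1 with 5.89. Its level was 13.39 in SK-MES-1, 10.21 in PANC1, 8.87 in PC3, 8.57 in SW1990 and 8.20 in MDA-MB-231, so that SK-MES-1 exceeded MDA-MB-231 by 36.6-fold. GCLC, the catalytic subunit of glutamate-cysteine ligase, had the same order of lines, from 11.52 in SK-MES-1 and 10.04 in PANC1 to 8.85, 8.71 and 8.18 in the others. Its partner GCLM, the regulatory subunit, spanned just 0.89. GCLM levels ran from 10.84 in SK-MES-1 and 10.74 in PC3, which were closer than the mock channels of a line (0.158), to 9.95 in PANC1.

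NQO1, a quinone reductase and a widely used readout of NRF2 activity (probe at chr16:69744274-69744333, minus strand), had a level of 9.44 in SK-MES-1, 7.74 in PANC1, 7.47 in SW1990, 6.81 in PC3 and 6.68 in MDA-MB-231. The largest gap between mock channels of a line was 0.0513 for NQO1, smaller than any step in this order. TXNRD1, the cytosolic thioredoxin reductase (chr12:104732949-104733008, plus strand), ranged from 10.20 in SK-MES-1 down to 7.78 in SW1990. SRXN1, which repairs overoxidised peroxiredoxins (chr20:627563-627622, minus strand), was highest in PANC1 (11.98), next in SK-MES-1 (11.55) and lowest in MDA-MB-231 (9.79). KEAP1 lay between 9.23 in SW1990 and 9.64 in PANC1, the narrowest span of the 9 genes at 0.41.

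HMOX1, the haem-degrading oxygenase (chr22:35790122-35790181, plus strand), had its highest level in a pancreatic line. Its mock level was 13.63 in PANC1, 9.99 and 10.02 on the 2 SK-MES-1 arrays, 9.26 in PC3, 8.66 in MDA-MB-231 and 7.74 in SW1990. The 2 mock channels of PANC1 differed by 0.86 for HMOX1, with 13.20 on the miR-130-5p array and 14.06 on the miR-130-3p array. Taking that difference as the yardstick, SK-MES-1 could not be placed above PC3, nor PC3 above MDA-MB-231. PANC1 lay above SK-MES-1 by more than that on both arrays.

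The genes whose mock levels followed those of NQO1 most closely over the 5 lines, by the mean absolute difference of levels centred on the gene's own mean, were NOTCH3 (0.132), SLC38A10 (0.139) and RPS6KA2 (0.172), out of 15572 genes above background on all mock channels. With 5 lines, this describes likeness of pattern and was not tested. For NFE2L2 no such genes can be given.

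After transfection, 10 of the 70 measured ratios (14.3%) of the antioxidant genes lay at 1 or more from mock on the log2 scale, 7 below and 3 above. All 3 above mock belonged to HMOX1. Of the 7 below, 3 belonged to AKR1C1 and the others to NQO1, TXNRD1, SLC7A11 and HMOX1, 1 each. KEAP1, GCLM, GCLC and SRXN1 had none. The share of all genes past the same limit ran from 5.31% to 13.8% per array. Without the 2 PANC1 arrays, 8 of 54 ratios (14.8%) were past 1, where the share of all genes per array was 5.31% to 8.78%. With limits of 0.58 and 1.5, the count was 20 and 4.

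**Figure D2:**
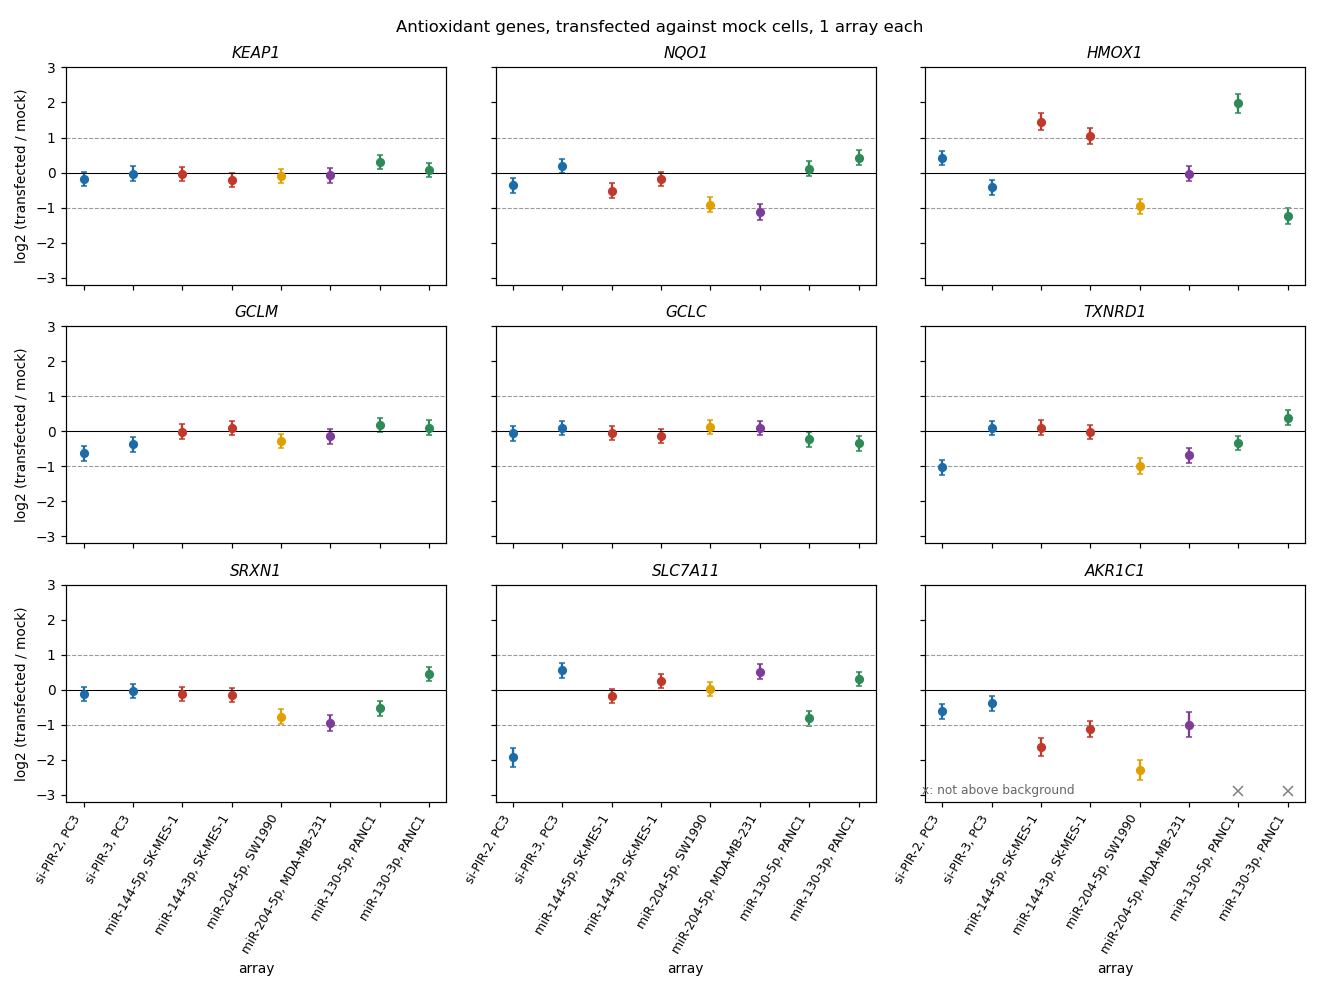
Log2 ratio of transfected over mock cells for the 9 measured genes on each of the 8 arrays, with the error of the scanner software as bars, colours for cell lines and dashed lines at 1 and -1. HMOX1 lies above 1 on 3 arrays and below -1 on 1, AKR1C1 is below 0 on all 6 arrays that measured it, and crosses mark arrays where it was not above background.

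The inhibitor KEAP1 stayed near mock. Its ratio was -0.18 and -0.028 on the PC3 arrays, -0.047 with the 5p and -0.21 with the 3p strand of miR-144, -0.096 in SW1990, -0.084 in MDA-MB-231, and 0.30 and 0.067 with miR-130-5p and miR-130-3p. These values rest on 10 spots per array, whose SD was at most 0.0441, and all but the 0.30 in PANC1 and the -0.21 in SK-MES-1 were smaller than the scanner error of about 0.2.

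miR-204-5p was the only RNA given to more than 1 line. In both lines NQO1, TXNRD1, SRXN1 and AKR1C1 lay below the mock level by 0.58 or more, which made 4 of the 9 measured genes against 2.33% of all 20563 genes measured on both arrays. NQO1 had a ratio of -0.91 ± 0.222 in SW1990 and -1.12 ± 0.236 in MDA-MB-231. Its signals were dim there, with a mock intensity of 133 in SW1990 and 67.4 in MDA-MB-231. SRXN1 had -0.76 ± 0.216 and -0.95 ± 0.222. TXNRD1 had -0.99 ± 0.224 and -0.69 ± 0.214. For these 3 genes the lines lay close together, and each ratio was more than 3 times its scanner error from 0. The count rested on the scanner's own correction. After normexp background correction with an offset of 50 and loess, for which this count was added after the data were seen, NQO1 had -0.59 in SW1990 and -0.46 in MDA-MB-231, TXNRD1 -0.69 and -0.52, and SRXN1 -0.70 and -0.89. On that scale SRXN1 alone, 1 of 9 genes, lay below mock by 0.58 or more in both lines, against 0.793% of all genes.

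AKR1C1 was less even, with -2.29 ± 0.296 in SW1990 and -0.997 ± 0.353 in MDA-MB-231. Its signals were dim there: the mock intensity was 132 in SW1990 and 29.7 in MDA-MB-231, against background signals near 20. The second AKR1C1 probe gave -2.11 and -0.28, and after loess normalization with an offset of 50 the first probe gave -1.25 and -0.16. HMOX1 was at -0.97 ± 0.223 in SW1990 and -0.028 ± 0.204 in MDA-MB-231. The glutathione genes did not follow: GCLM had -0.28 and -0.15, GCLC 0.11 and 0.085, and SLC7A11 0.020 and 0.52. Past the limit of 1 was 1 of 9 genes in SW1990 (AKR1C1), against 6.61% of all genes, and 1 of 9 in MDA-MB-231 (NQO1), against 5.31%.

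By limma over the 2 arrays, 0 of the 9 genes and 0% of the 20563 genes tested had an adjusted p under 0.05, while 19.02% of all genes and 4 of the 9 had an unadjusted p under 0.05. The mean was -1.02 ± 0.148 (SD, n = 2 lines) for NQO1, -0.86 ± 0.132 for SRXN1, -0.84 ± 0.214 for TXNRD1 and -1.64 ± 0.915 for AKR1C1, each lower in 2 of 2 lines. The limma standard errors were 0.117, 0.113, 0.132 and 0.382, with adjusted p of 0.214, 0.214, 0.216 and 0.222. The call turned on the normalization. With normexp and loess, limma called 6.53% of all genes, and NQO1 (-0.53, adjusted p = 0.0295), SRXN1 (-0.80, adjusted p = 0.0236) and TXNRD1 (-0.60, adjusted p = 0.0289) passed. With loess and no background subtraction it called 6.86%, with NQO1, SRXN1 and TXNRD1 at adjusted p of 0.0117, 0.0117 and 0.0162. Over all 10 alternatives of each gene, the limma adjusted p ran from 0.0117 to 0.747 for NQO1 and SRXN1, from 0.0162 to 0.881 for TXNRD1 and from 0.0992 to 0.747 for AKR1C1.

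**Figure D3:**
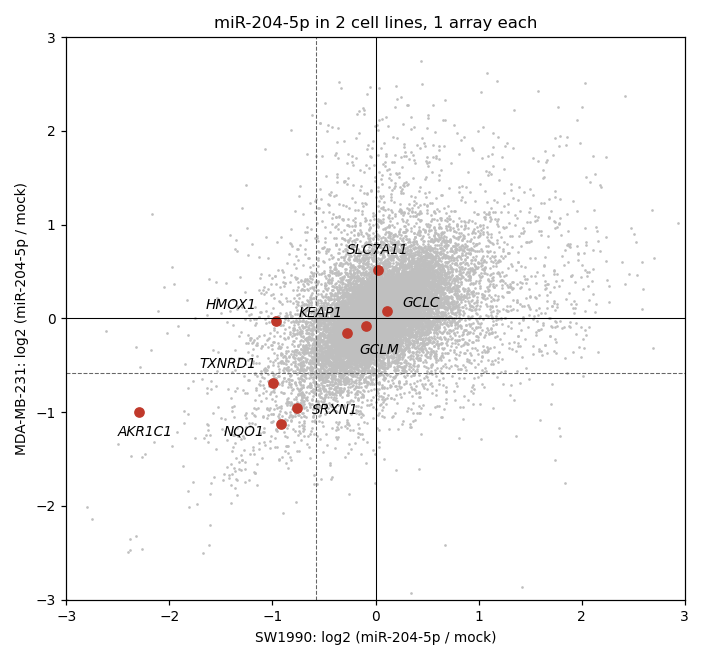
Log2 ratio of miR-204-5p over mock in SW1990 (horizontal) and MDA-MB-231 (vertical) for 20554 genes in grey, with 9 further genes beyond the axes and the antioxidant genes in red; dashed lines stand at -0.58. NQO1, SRXN1, TXNRD1 and AKR1C1 lie in the lower left field and GCLM, GCLC, KEAP1 and SLC7A11 near the centre or above.

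Promoter windows were searched for the core of the antioxidant response element, TGACNNNGC, on both strands, because these genes share NRF2 as a known regulator. RefSeq windows (GRCh38.p14, 250 bases before the start of a transcript to 50 after) were given for 8 of the 10 genes, 11 windows in all. A core was found in 4 windows of 3 genes, against 13.3% of all 35116 windows. It is shown in capitals, with 8 bases to each side, on the gene's strand.
GCLM: cgatttctGCTTAGTCAttgtcttc
TXNRD1, upstream start: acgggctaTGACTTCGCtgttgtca
TXNRD1, upstream start, second match: gtccttcgGCTCCGTCAgttcccac
TXNRD1, downstream start: ggatttctGCTTTGTCAttctgact
KEAP1, downstream start: ttttattgTGACACGGCgggcgccc
KEAP1, downstream start, second match: ccggctctGCTTAGTCAtggtgacc
PIR: cgcgaagcGCTGAGTCAcggtgagg
The windows are chr1:93909381-93909680 for GCLM, chr12:104215529-104215828 and chr12:104286782-104287081 for TXNRD1, chr19:10502722-10503021 for KEAP1 and chrX:15493284-15493583 for PIR, which was searched as the siRNA target. The GCLM match began 34 bases before the start of transcription, and the PIR match overlaps the AP-1 motif TGACTCA. Of the 4 genes that lay below mock in both miR-204-5p lines, TXNRD1 had the core in its windows, and the windows of NQO1, SRXN1 and AKR1C1 did not hold these letters. The window is short, and elements further upstream were not searched.

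In SK-MES-1, HMOX1 and AKR1C1 stood on opposite sides of mock with both strands of miR-144. HMOX1 had a ratio of 1.45 ± 0.244 with miR-144-5p and 1.05 ± 0.226 with miR-144-3p, with an SD over its 10 spots of at most 0.0315. AKR1C1 had -1.63 ± 0.253 and -1.13 ± 0.229. The 2 ratios of a gene share the mock cells of 1 line, whose Cy3 channels differed by an SD of 0.0657 over probes, so they are not independent of each other. Past the limit of 1 were 2 of 9 genes with miR-144-5p, against 6.17% of all genes, and 2 of 9 with miR-144-3p, against 5.70%.

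All 3 AKR1C1 probes were above background in SK-MES-1, and all 3 lay below mock. The second gave -1.73 and -1.28, and the third, designed to another transcript, gave -1.91 and -1.02. Human AKR1C genes are near copies of each other, and AKR1C2 is no gene name on this array, so the AKR1C1 signal may include AKR1C2 and is uncertain in that respect. The first 21 bases of the second AKR1C1 probe (A_24_P152968, chr10:5005636-5005695 of hg19, plus strand) are set here against the most similar stretch of the AKR1C2 window, with the differing base in capitals.
AKR1C1: aatggattcgaaataTcagtg
AKR1C2: aatggattcgaaataCcagtg
They differ by T16C, counted from 1 at the 5′ end of the probe. No reference was used here for the other 39 bases of the probe.

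The remaining genes stayed nearer to mock in SK-MES-1. NQO1 had -0.52 and -0.18 with miR-144-5p and miR-144-3p, SLC7A11 -0.18 and 0.25, SRXN1 -0.12 and -0.15, TXNRD1 0.10 and -0.033, GCLC -0.051 and -0.14, and GCLM -0.013 and 0.088. Apart from NQO1 with miR-144-5p and SLC7A11 with miR-144-3p, none of these exceeded its scanner error.

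In PANC1, HMOX1 stood on opposite sides of mock with the 2 strands of miR-130. Its ratio was 1.97 ± 0.273 with miR-130-5p and -1.25 ± 0.234 with miR-130-3p, a difference of 3.22. It was the only one of the 8 measured genes past 1 on either array, where 13.8% and 8.45% of all genes were past 1. Read from the intensities over 10 spots, mock HMOX1 was 9794 and transfected HMOX1 65587 on the miR-130-5p array, and mock was 17306 and transfected 14381 on the miR-130-3p array. The transfected channels thus lay further apart than the mock channels, although the mock channels also differed, by 1.77-fold in intensity and by 0.86 in the normalized log2 mock level. Across 19878 probes above background on all mock channels, the SD of the difference between the 2 PANC1 mock channels was 0.0697, and just 3 probes (0.0151%) differed as much as HMOX1. The other two, of lnc-CTTN-3 and ZNF2, had 1 spot each. In PC3 and SK-MES-1 the mock channels differed by 0.015 and 0.028 for HMOX1. With the mock level averaged over both arrays of the line, the HMOX1 ratio was 1.60 with miR-130-5p and -0.83 with miR-130-3p, again with opposite signs. Whether the 2 arrays used the same mock RNA is not stated, and the part of the culture in the result was not tested.

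**Figure D4:**
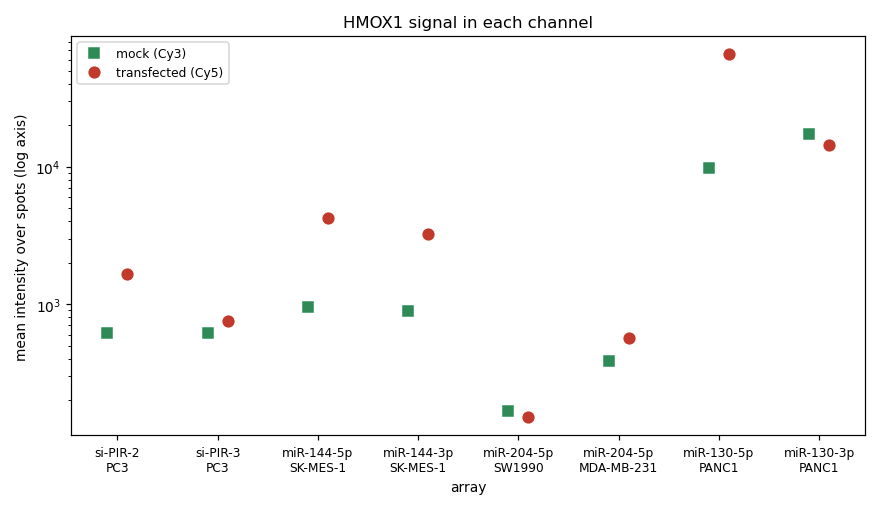
Mean HMOX1 intensity over 10 spots in the mock (Cy3, squares) and transfected (Cy5, circles) channel of each array, on a log axis; the dyes differ in brightness, so the distance between a square and a circle is not the ratio. The mock channels of PC3 and of SK-MES-1 are level, whereas those of PANC1 stand at 9794 and 17306.

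Several other antioxidant genes had the lower ratio with miR-130-5p. SLC7A11 had -0.81 ± 0.217 and 0.31 ± 0.206, SRXN1 -0.53 ± 0.210 and 0.45 ± 0.208, and TXNRD1 -0.34 ± 0.206 and 0.39 ± 0.207. NQO1 had 0.11 and 0.42. GCLM had 0.18 and 0.10, and GCLC -0.23 and -0.35, within their errors of each other. KEAP1, with 0.30 and 0.067, and HMOX1 had the higher ratio with miR-130-5p. These differences were not tested. PIR itself was at -1.59 with miR-130-5p and 0.051 with miR-130-3p.

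In PC3, the 2 siRNAs against PIR gave unlike ratios for several antioxidant genes. With si-PIR-2, SLC7A11 had a ratio of -1.92 ± 0.270 and TXNRD1 one of -1.04 ± 0.225, the 2 of 9 genes past 1 on an array where 8.78% of all genes were. With si-PIR-3 the same genes had 0.56 ± 0.210 and 0.097 ± 0.204, and 0 of 9 were past 1, against 6.26% of all genes. HMOX1 had 0.42 and -0.42, and NQO1 -0.36 and 0.19. GCLM, with -0.63 ± 0.212 and -0.38 ± 0.207, and AKR1C1, with -0.62 ± 0.218 and -0.39 ± 0.212, were below mock with both siRNAs. AKR1C1 was dim in PC3, with mock intensities of 64.1 and 67.9. After normexp and loess AKR1C1 had -0.29 and -0.19, and GCLM had -0.61 and -0.36. SRXN1 (-0.11 and -0.043), GCLC (-0.067 and 0.099) and KEAP1 were within their scanner errors.

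By limma over the 2 PC3 arrays, 0 of 9 genes and 0% of 22503 genes had an adjusted p under 0.05, and 0 of the 9 genes but 10.4% of all genes had an unadjusted p under 0.05. PIR, at -4.86 ± 0.836 (SD, n = 2 arrays), had a limma adjusted p of 0.391, the smallest of all genes. GCLM had a mean of -0.50 ± 0.176 (SD), a standard error of 0.186 and a limma adjusted p of 0.480. AKR1C1 had a mean of -0.50 ± 0.164 (SD), a standard error of 0.184 and a limma adjusted p of 0.480. When the mean of the 6 other arrays was subtracted, AKR1C1 turned to 0.41 and GCLM did not change sign. For AKR1C1 that mean included the PANC1 ratios of -0.32 ± 1.18 and 0.89 ± 1.16, where neither channel was above background. Without si-PIR-2, SLC7A11 turned from -0.68 to 0.56 and TXNRD1 from -0.47 to 0.10.

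Taking the 5 lines as replicates of transfection as such, 0 of the 8 genes tested were called by limma, against 0.352% of 18731 genes. Dye and transfection run the same way in this comparison. The largest means belonged to NQO1 (-0.44 ± 0.575, SD over 5 lines), TXNRD1 (-0.42 ± 0.450) and SRXN1 (-0.39 ± 0.430), with limma adjusted p of 0.270, 0.219 and 0.227. TXNRD1 and SRXN1 had an unadjusted p under 0.05, as did 20.4% of all genes. Outside PANC1, where it was not measured, AKR1C1 lay below mock on 6 of 6 arrays, as did KEAP1 and SRXN1, that is 3 of 9 genes against 5.74% of 19332 genes. On these 6 arrays, the KEAP1 values were smaller than their scanner errors, apart from -0.21 with miR-144-3p. The SRXN1 values were likewise smaller than theirs, apart from those with miR-204-5p. On the 2 PANC1 arrays, KEAP1 had 0.30 and 0.067, and SRXN1 had -0.53 and 0.45. The 66 genes called in all fell to between 3 and 8 when any 1 line was left out.

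The 12 regulators of the pathway that were looked at beside NRF2 and KEAP1 (among them CUL3, RBX1, BACH1, the small MAF genes and SQSTM1) had no value below -1 on any array, and 1 was above 1 on each of 3 arrays, where 4.19% (miR-144-5p), 7.65% (miR-130-5p) and 6.52% (miR-130-3p) of all genes were. MAFF, a small MAF partner, had 1.33 with miR-130-5p. BACH1, the repressor of HMOX1, had 1.07 with miR-130-3p, and it was also at 0.65 and 0.92 in the miR-204-5p arrays of SW1990 and MDA-MB-231. BACH1 was above 0 as well on the arrays where HMOX1 was past 1 above mock. There it had 0.35 with miR-130-5p, 0.18 with miR-144-5p and 0.27 with miR-144-3p. In PC3 it had 0.047 with si-PIR-2 and 0.45 with si-PIR-3. A relation between BACH1 and HMOX1 was not tested. NFE2L3, a relative of NRF2, had 1.002 with miR-144-5p and 0.93 with miR-144-3p.

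A further 26 NRF2 target genes, PIR left aside, differed in direction between the arrays. In SK-MES-1, 22 of 26 were below 0 with miR-144-5p and 22 of 26 with miR-144-3p, with medians of -0.31 and -0.32, where the medians of all genes were 0.039 and 0.025. The aldo-keto reductase AKR1B10 had -1.75 and -1.14 with miR-144-5p and miR-144-3p, AKR1C3 had -1.20 and -0.94, and the glutathione peroxidase GPX2 had 0.75 and -1.14. In SW1990 with miR-204-5p, 21 of 26 were below 0, with a median of -0.22, AKR1B10 at -1.55 and AKR1C3 at -1.16. In MDA-MB-231 with miR-204-5p, 13 of 26 were below 0 and the median was -0.015. With si-PIR-2 in PC3, 17 of 26 were below 0, with a median of -0.098, and with si-PIR-3 8 of 26, with a median of 0.12. AKR1B10 had -0.63 with si-PIR-2 and 1.30 with si-PIR-3. Its mock intensity on the si-PIR-3 array was dim at 43.8, and after loess with the offset the ratio there was 0.56. In PANC1, 17 of 26 were below 0 with miR-130-5p, with a median of -0.22. On that array 3 of 26 were at -1 or below, against 6.18% of all genes. With miR-130-3p, 13 of 26 were below 0, with a median of -0.0034. The medians of all genes on the arrays outside SK-MES-1 lay between 0.033 and 0.094. UGDH, which makes UDP-glucuronate for glucuronidation, had -0.58 in SW1990 and -0.95 in MDA-MB-231 with miR-204-5p. Values above 2 belonged to GPX2 (2.25, miR-204-5p in MDA-MB-231) and AKR1C3 (2.03, miR-130-3p in PANC1), whose mock signals were not well above background. After loess with the offset these 2 ratios were 0.14 and 0.12.

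**Figure D5:**
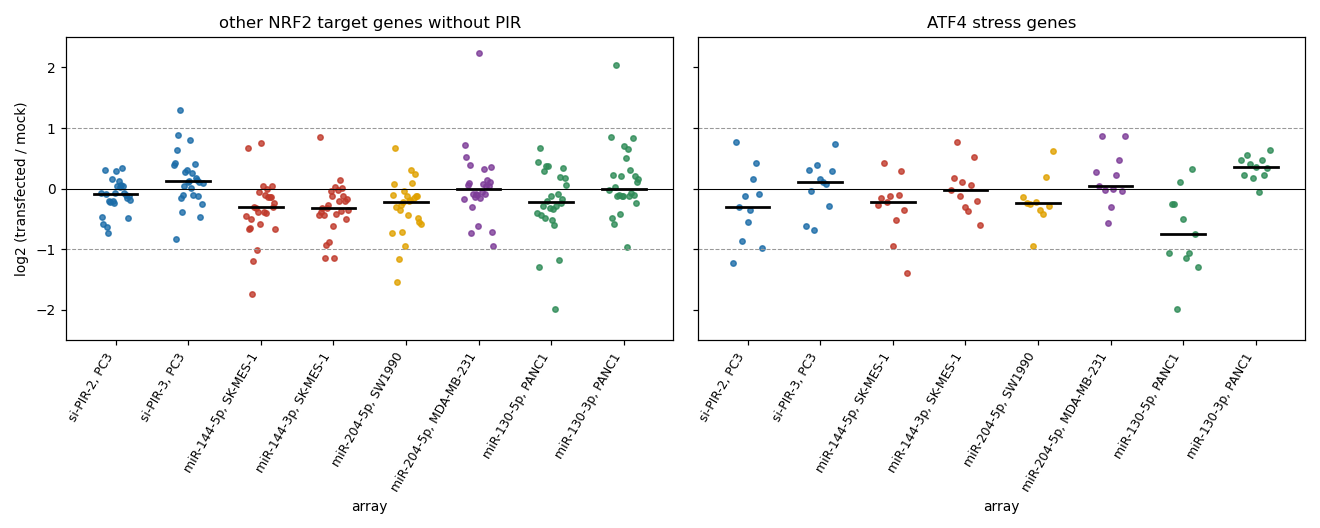
Log2 ratio of transfected over mock on each array for 26 further NRF2 target genes (left) and 11 genes of the ATF4 stress response (right), one point per gene, with bars at the median and colours for cell lines. The ATF4 genes of the 2 PANC1 arrays have medians of -0.75 and 0.35.

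SLC7A11 is also known as a target of ATF4, the factor of the amino acid stress response, and the ATF4 genes lay on the same side of mock as SLC7A11 on some arrays. With miR-130-5p in PANC1, 5 of the 11 were at -1 or below, against 6.18% of all genes on that array. They were CTH (-1.99), which makes cysteine from cystathionine, VLDLR (-1.29), and the serine and asparagine synthesis genes PHGDH (-1.15), ASNS (-1.07) and PSAT1 (-1.06). On the same array the NADPH-forming enzymes ME1 and PGD had -1.99 and -1.18. With miR-130-3p, 1 of 11 ATF4 genes was below 0 and the median was 0.35. With si-PIR-2 in PC3, where SLC7A11 was lowest, 8 of 11 were below 0, with ASNS at -1.23 and a median of -0.31. With si-PIR-3, 4 of 11 were below 0, with a median of 0.11. ATF4 itself was above mock with both, at 0.76 with si-PIR-2 and 0.30 with si-PIR-3. Elsewhere the sides did not always match. With miR-204-5p in SW1990, 8 of 10 ATF4 genes were below 0 (median -0.24) and SLC7A11 was at 0.020. With miR-144-3p, 6 of 11 were below 0 (median -0.023) and SLC7A11 was at 0.25. With miR-144-5p, 9 of 11 were below 0 (median -0.22) and SLC7A11 was at -0.18. In MDA-MB-231, 5 of 11 were below 0 (median 0.043) and SLC7A11 was at 0.52. Each of these arrays is 1 sample, and no test was made between them.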

How the data were processed

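The authors deposited, for each of 8 arrays, the Agilent Feature Extraction output: the intensity of every spot in Cy3 and Cy5 on a linear scale, and a log10 value of transfected over mock with its error, made by the software's background and dye correction. The authors' series table repeats these log10 values (largest difference 0). They were multiplied to log2 (scanner ratio). Control spots and flagged outliers (126 to 173 per array) were dropped, and repeated spots averaged. A gene was represented by the brightest probe that cleared background in either channel on every array compared. Mock levels are log2 Cy3 intensities after normexp (offset 50) and quantile normalization. limma 3.58.1 in R 4.3.3 tested mean ratios against 0 with Benjamini-Hochberg adjustment over all genes (threshold 0.05); the mock RNA counts as 1 control sample whose own spread is left out, and what separates the samples of a comparison may be technical. Simulated with the spread of the miR-204-5p arrays, limma called 46 of 67 genes changed by 3 and 0 of 67 changed by 2 (log2); with that of the PC3 arrays, 51 and 3 of 67. The genes, lists and tests were chosen with earlier results of these data known. All 10 genes are named, with up to 3 genes per list and direction that passed 1, and the 3 nearest to NQO1. UGDH, PGD, PHGDH, PSAT1, ATF4 and the markers' or list genes' values on further arrays were picked after the values were seen. Figures were drawn with matplotlib 3.10.9.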

Additional observations from a re-analysis of the deposited data

Results flagged for a closer look

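Of the 9 genes measured, HMOX1 alone lay past 1 (log2 scale) in opposite directions on the 2 arrays of a cell line. In PANC1 its ratio with miR-130-5p minus that with miR-130-3p was 3.22. The difference was not tested. The mock channels of these 2 arrays differed by 0.86 for HMOX1, and the part of this in the result was not tested beyond the value with an averaged mock level, where the ratios were 1.60 and -0.83.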

How the results depend on the processing

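For miR-204-5p, limma called 1342 genes with normexp and loess, 1411 with loess and no background subtraction and 5 with both channels above background, in place of 0, and 0 otherwise. The si-PIR count was 0 under all 11 alternatives. For transfection over 5 lines, the 66 calls became 245 and 235 with loess after and without background subtraction, 152 with both channels above background, 24 without the filter on dim probes and 3 to 8 without 1 line. The count of 10 ratios past 1 became 20 and 4 at limits of 0.58 and 1.5, and was 7 to 13 otherwise. The averaged mock level (7) and leaving out PANC1 (8) were added after the data were seen. The count of 7 wide mock spans was 7 under 3 alternatives.

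In the 3 comparisons as designed, none of the genes tested was called. These were 9 for si-PIR, 9 for miR-204-5p and 8 over the 5 lines, and NFE2L2 was never tested. The 6 calls gained were those of NQO1, SRXN1 and TXNRD1 under loess. For si-PIR, signs turned under loess after background subtraction (HMOX1 0.031), loess without it (HMOX1 0.0030) and median centring (GCLC -0.033). They also turned under subtraction of the 6 other arrays (NQO1 0.28, SRXN1 0.27, AKR1C1 0.41). For AKR1C1 the subtracted mean included the PANC1 arrays, where it was not measured. With 1 of the 2 arrays left out, the si-PIR value ran from -0.36 to 0.19 for NQO1, -0.42 to 0.42 for HMOX1, -0.067 to 0.099 for GCLC, -1.04 to 0.097 for TXNRD1 and -1.92 to 0.56 for SLC7A11. With 1 of the 5 lines left out, the mean over lines ran from -0.16 to 0.40 for HMOX1, -0.072 to 0.029 for GCLC and -0.22 to 0.081 for SLC7A11. The causes were not tested. Where an array was left out of a pair, the remaining one was assumed to vary like the other arrays. Each ratio pairs transfected with mock RNA on 1 array. No further pairing between groups was made, as no groups share 2 replicate numbers. Genes with dim signals, AKR1C1 outside SK-MES-1 above all, are the least precise.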
